A study of Homo sapiens with 3 samples.

Results

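The integrated stress response and the unfolded protein response were followed through 31 genes, chosen by symbol with earlier results of these data known. They were 5 sensors, 9 genes of the ATF4 arm, 16 genes of the XBP1 and ATF6 arm, and VEGFA. All 31 were among the 20332 genes of the deposited table, and 30 passed the minimum of a mean of 1 CPM (counts scaled to library size) that left 11322 genes for analysis; NUPR1 lay below it. The cells were MV-4-11, an established human leukaemia line that carries an activated FLT3 receptor and is described in the labels as biphenotypic B-myelomonocytic, with a wild type genotype. One group was cultured untreated for 1 day, and the FL-Fc-DM1 conjugate was given to the others for 1 day, at a concentration of 0.5 nM in one and 1.5 nM in the other. Its name stands for the ligand of FLT3, an Fc fragment and the drug DM1, which blocks microtubule assembly. Each group was 1 library of a single line, so no difference has a replicate check, no test was run and the ratios compare these libraries. The table numbers its columns without doses, and the doses here follow the order of those numbers. Cells given the ligand and Fc part without DM1, or DM1 alone, were not analysed here.

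In the integrated stress response, kinases that sense haem shortage or mitochondrial stress, endoplasmic reticulum (ER) stress or amino acid shortage phosphorylate the initiation factor eIF2. General translation is then reduced, while the mRNA of the transcription factor ATF4 is translated more, and ATF4 switches on genes for amino acid supply, redox balance and, if stress persists, cell death. The unfolded protein response adds the ER sensors IRE1 and ATF6: IRE1 splices the mRNA of XBP1, and ATF6 is cut in the Golgi to free a transcription factor, and both raise chaperones and degradation factors of the ER. Much of this control acts on protein and splicing. The table holds gene-level mRNA only, so eIF2 phosphorylation, XBP1 splicing and ATF6 cleavage were not measured, and in bulk RNA fewer cells with a transcript cannot be told apart from less of it per cell.

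The median of neither arm lay far from that of all genes at either dose, while single genes went both ways. In the 0.5 nM library against untreated cells, the median log2 ratio was -0.03 over the 8 analysed ATF4 arm genes and -0.04 over the 16 XBP1 and ATF6 arm genes, against 0.00 over all genes. In the 1.5 nM library the medians were -0.06 for the ATF4 arm and 0.02 for the XBP1 and ATF6 arm, again against 0.00 over all genes. The comparisons with untreated cells share that 1 library. At 0.5 nM the counting interval, which is the exact 95% interval of a ratio for counting error, lay below 0 for 7 of the 16 XBP1 and ATF6 arm genes and above 0 for 1; among its 11 chaperones and folding factors these counts were 6 and 0, and among the 8 ATF4 arm genes 3 and 1. The shares over all genes were 17.3% below 0 and 16.7% above 0. At 1.5 nM the counts were 5 below and 6 above for the XBP1 and ATF6 arm and 3 below and 1 above for the ATF4 arm, beside 23.6% and 22.7% of all genes. With TPM (a measure scaled to transcript length and library size) in place of counts, the medians at 0.5 nM were 0.03 and 0.02, beside 0.06 over all genes on that scale. The gene furthest from the untreated level among the 30 was CHAC1, lower at both doses, and the gene furthest in the other direction was PPP1R15A, higher at both doses.

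Few members passed a fold threshold. At least 1.5-fold lower was 1 member of 30, CHAC1, at 0.5 nM (background 0.901% of all genes) and again 1, CHAC1, at 1.5 nM (background 2.23%). No member was at least 1.5-fold higher at 0.5 nM (background 2.46%) or at 1.5 nM (background 4.76%). None of the 30 reached 2-fold in either direction at 0.5 nM (background 0.76%) or at 1.5 nM (background 2.04%). Between the treated libraries, 1.5 nM against 0.5 nM, none was 1.5-fold higher (background 2.38%), 1.5-fold lower (background 1.97%) or 2-fold different (background 0.972%). These shares are close to what the background alone would place among 30 genes, so they show nothing particular to the members.

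Smaller differences can still be set against counting error, with each interval given in square brackets; it covers counting error only and not the variation between cultures. At 0.5 nM the interval lay above 0 for 3 of 30 members (background 16.7%) and below 0 for 11 (background 17.3%). At 1.5 nM it lay above 0 for 9 members (background 22.7%) and below 0 for 11 (background 23.6%). For 1.5 nM against 0.5 nM it lay above 0 for 14 members (background 17.6%) and below 0 for 6 (background 19.2%). Intervals are narrower for abundant genes, and the members were not compared with genes of equal abundance.

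**Figure D1:**
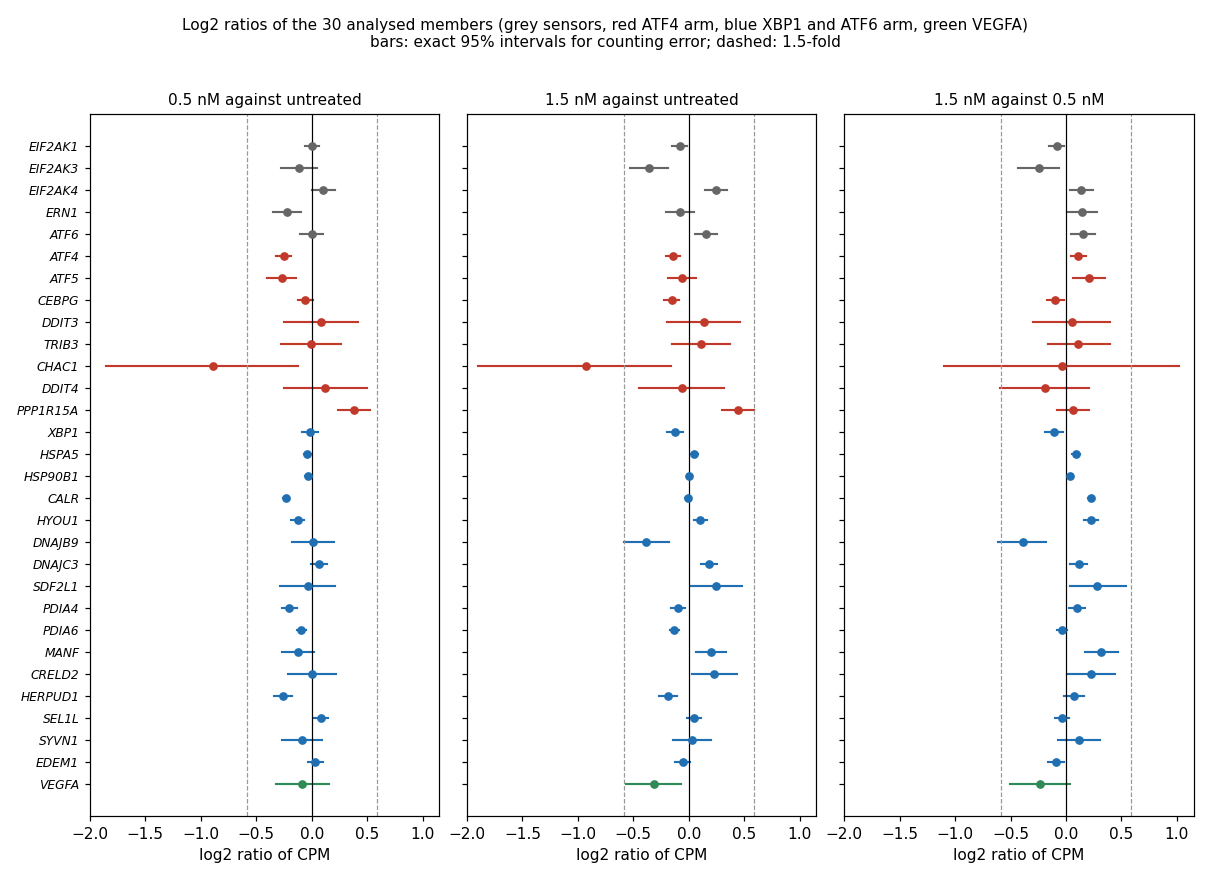
Log2 ratios of CPM (x axis) of the 30 analysed members (y axis, coloured by role) for each dose against untreated cells and for 1.5 nM against 0.5 nM; points are ratios, bars exact 95% intervals for counting error, and dashed lines mark 1.5-fold. CHAC1, at -0.89 and -0.93, is the only point beyond a dashed line.

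Levels set the arms apart far more than treatment did. Summed over its 16 genes, the XBP1 and ATF6 arm held 4031 TPM in the untreated library, 3910 TPM in the 0.5 nM library and 4121 TPM in the 1.5 nM library, which was 0.403%, 0.391% and 0.412% of all TPM in the same order. The 9 ATF4 arm genes summed to 552 TPM untreated, 524 TPM at 0.5 nM and 534 TPM at 1.5 nM. The sum of the ATF4 arm was therefore 0.137 of that of the XBP1 and ATF6 arm in untreated cells, 0.134 at 0.5 nM and 0.130 at 1.5 nM. Both sums were lowest at 0.5 nM. CALR, HSP90B1 and HSPA5 together made up between 65.7% and 67.1% of the XBP1 and ATF6 arm in the 3 libraries, and ATF4 itself between 55.8% and 59.5% of its arm.

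**Figure D2:**
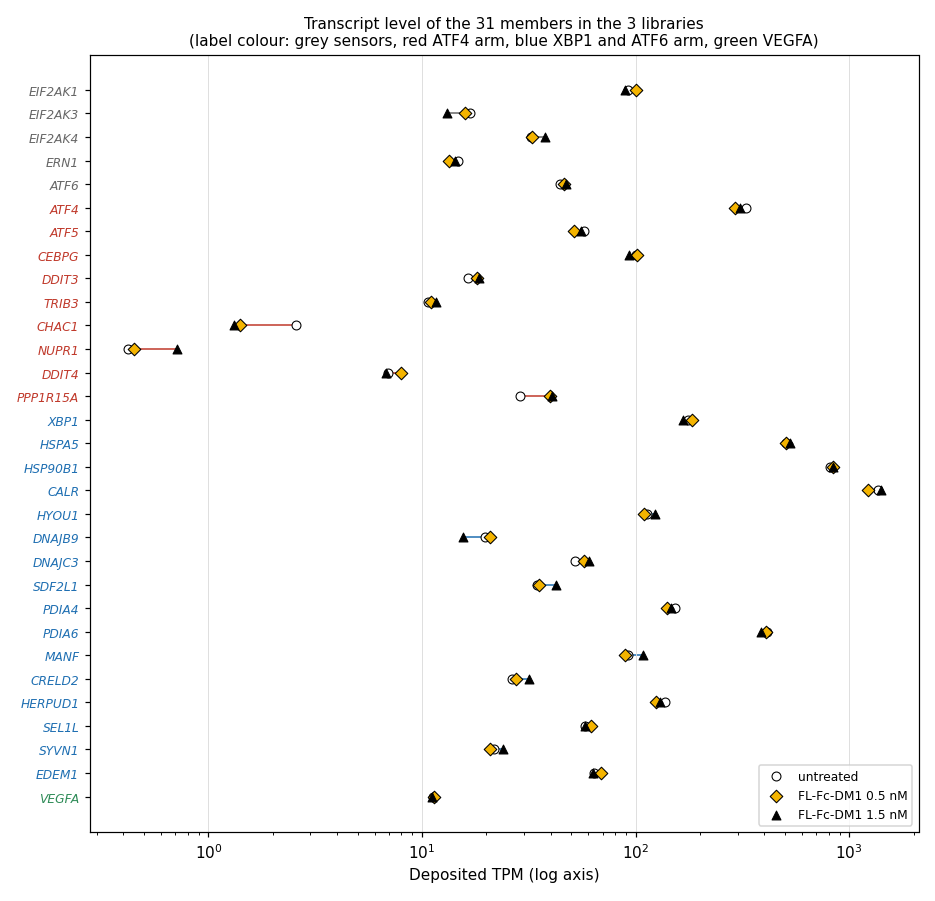
Deposited TPM (log x axis) of the 31 members (y axis, label colour by role) in the untreated (open circle), 0.5 nM (diamond) and 1.5 nM (triangle) libraries. Symbols of 1 gene lie close together for nearly all members, while genes span from 0.418 TPM for NUPR1 to 1405 TPM for CALR.

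The sensors went in different directions. EIF2AK3 encodes PERK, the eIF2 kinase of the ER membrane, and stood at 33.2 CPM in untreated cells, 30.7 CPM at 0.5 nM and 25.9 CPM at 1.5 nM. Its level was lower at each dose than at the one before, with a log2 ratio to untreated of -0.11 [-0.28, 0.05] at 0.5 nM and -0.36 [-0.53, -0.19] at 1.5 nM. EIF2AK4 encodes GCN2, which senses uncharged tRNA, and went the other way, from the low to the high dose: 79.5 CPM untreated, 85.5 CPM at 0.5 nM and 94.0 CPM at 1.5 nM. Its ratio was 0.10 [0.00, 0.21] at 0.5 nM and 0.24 [0.14, 0.34] at 1.5 nM, above those of 83.1% of all genes at the higher dose. EIF2AK1, which encodes the haem-regulated kinase HRI, was the most abundant sensor per length, with 92.3 TPM untreated, 100.2 TPM at 0.5 nM and 89.1 TPM at 1.5 nM. By counts its ratio was 0.00 [-0.06, 0.07] at 0.5 nM and -0.08 [-0.15, -0.02] at 1.5 nM.

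The remaining ER sensors each differed from untreated cells beyond counting error at 1 dose. ERN1, which encodes IRE1 alpha, had 58.6 CPM in untreated cells, 50.2 CPM at 0.5 nM and 55.4 CPM at 1.5 nM, lowest at 0.5 nM, where its ratio was -0.22 [-0.35, -0.10]; at 1.5 nM it was -0.08 [-0.20, 0.04]. ATF6 had 79.2 CPM untreated, 79.3 CPM at 0.5 nM and 88.3 CPM at 1.5 nM. Its counting interval lay above 0 only at the higher dose, with a ratio of 0.16 [0.06, 0.26]. Counts of EIF2AK1, ERN1 and ATF6 were not whole numbers in at least 1 library, so part of their reads may be shared with other genes, which the intervals do not cover.

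ATF4, the transcription factor at the centre of the integrated stress response, was the most abundant gene of its arm and lower at both doses. It had 329 TPM in untreated cells, 293 TPM at 0.5 nM and 306 TPM at 1.5 nM, and 232, 194 and 210 CPM in the same order. Its log2 ratio to untreated was -0.25 [-0.32, -0.19] at 0.5 nM, with 7.42% of all genes lower, and -0.14 [-0.20, -0.08] at 1.5 nM. On the TPM scale the ratio of ATF4 at 0.5 nM was -0.17. ATF5, a related factor that is also controlled through translation, had 54.2 CPM untreated, 44.9 CPM at 0.5 nM and 51.9 CPM at 1.5 nM, a ratio of -0.27 [-0.41, -0.14] at 0.5 nM and -0.06 [-0.19, 0.06] at 1.5 nM. CEBPG encodes a bZIP partner of ATF4. It had 193 CPM untreated, 185 CPM at 0.5 nM and 174 CPM at 1.5 nM, and was below untreated cells beyond counting error at 1.5 nM, with a ratio of -0.15 [-0.22, -0.08].

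The remaining genes of the ATF4 arm went in different directions, and most have low counts. CHAC1, which encodes a glutathione-degrading enzyme, had 44 counts in untreated cells, 17 counts at 0.5 nM and 17 counts at 1.5 nM. These are 2.00, 1.03 and 1.00 CPM, so CHAC1 was lower in both treated libraries, with ratios of -0.89 [-1.86, -0.12] and -0.93 [-1.90, -0.16] and intervals that reach close to 0. DDIT3 encodes CHOP, the factor tied to death under lasting stress, and had 7.72 CPM untreated, 8.15 CPM at 0.5 nM and 8.45 CPM at 1.5 nM. Its ratios, 0.08 [-0.25, 0.42] and 0.13 [-0.20, 0.46], lay within counting error. The same held for TRIB3, a pseudokinase induced by CHOP, with 12.4 CPM untreated, 12.3 CPM at 0.5 nM and 13.4 CPM at 1.5 nM.

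DDIT4, which encodes the mTORC1 inhibitor REDD1, had 6.22 CPM untreated, 6.78 CPM at 0.5 nM and 5.94 CPM at 1.5 nM, also within counting error at both doses. NUPR1, a small stress-induced chromatin protein, was nearly silent, with 5 counts in untreated cells, 2 counts at 0.5 nM and 15 counts at 1.5 nM. Its log2 ratio of 1.5 nM to untreated was 1.96 [0.43, 3.77], and the width of that interval shows how little 5 counts can fix. That ratio came straight from the scaled counts, without the small count added in the ratios of the other members. DDIT3 and ATF5 had counts that were not whole and may share reads with other genes.

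Among the analysed genes of the ATF4 arm, PPP1R15A was the exception in the upward direction. It encodes GADD34, which brings protein phosphatase to eIF2 and reverses its phosphorylation, and it is also induced by DNA damage. PPP1R15A had 775 counts in untreated cells, 756 counts at 0.5 nM and 812 counts at 1.5 nM, from libraries of 22329953, 16427206 and 16864857 estimated counts. Scaled to depth, these were 35.2, 45.8 and 47.8 CPM, with both treated libraries above the untreated one. The ratios were 0.38 [0.23, 0.53] at 0.5 nM and 0.44 [0.30, 0.59] at 1.5 nM, above those of 94.5% and 92.4% of all genes. The 2 doses differed by 0.06 [-0.08, 0.21], within counting error, and this sign turned with the GC trend removed (-0.04).

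**Figure D3:**
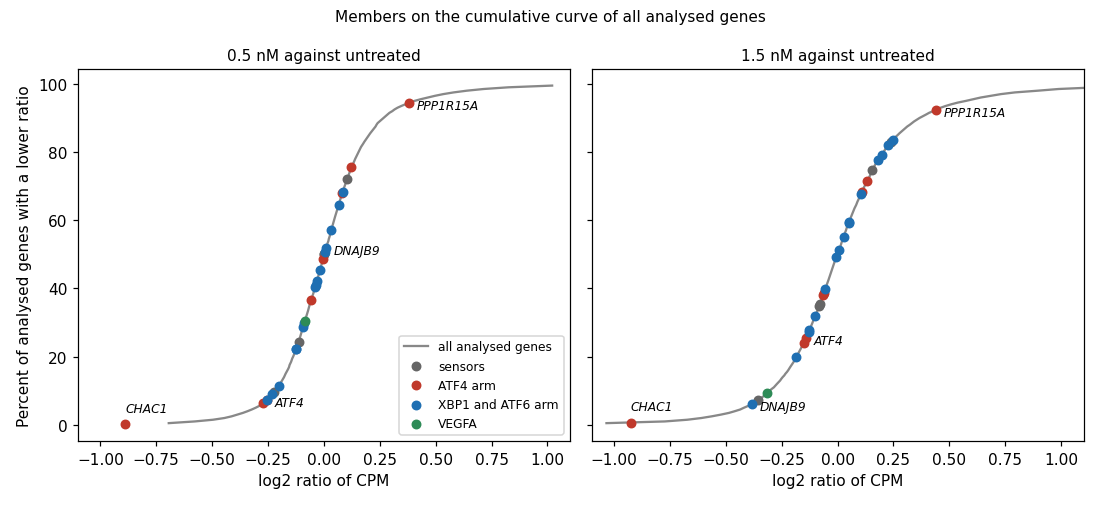
Share of the 11322 analysed genes with a lower log2 ratio (y axis) against the log2 ratio (x axis) for 0.5 nM and 1.5 nM against untreated cells; the grey line is all genes and points are members by role. CHAC1 lies at the lower end of the curve and PPP1R15A near its upper end in both panels, with the other members between them. At 0.5 nM DDIT4, above 75.5% of all genes, comes next below PPP1R15A, above 94.5%.

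Genes of the ER arm are known to carry the ER stress element in their promoters, which holds CCAAT and, after a gap of 9 bases, CCACG, or a second form in which ATTGG is followed after 1 base by CCACG. Both were searched on either strand in RefSeq promoters (GRCh38.p14, 250 bases before to 50 after each start), which listed 28 of the 31 members. The first form was found in 6 of 16 XBP1 and ATF6 arm genes (XBP1, HSPA5, HSP90B1, CALR, PDIA6 and CRELD2) and in 0.0916% of all gene symbols of the table. The second form was found in 3 of 16 (HYOU1, HERPUD1 and SDF2L1) and in 0.0696% of all symbols. Neither form was found in the 8 ATF4 arm genes listed. Counted by promoter entry, the shares were 0.0769% and 0.0541%. A match describes the letters and is not a measured binding site.

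Windows around the elements of the genes on which the chaperone results turn are shown 5′ to 3′ on the gene's strand, with the element in capitals; where the element lies on the other strand the capitals read as its complement, starting with CGTGG. Windows of these elements that overlap an exon of GENCODE release 29 are not shown. HSPA5 lies on the minus strand at chr9:125241381-125241419, CALR on the plus strand at chr19:12938374-12938412, and CRELD2 on the plus strand at chr22:49918544-49918582. Of the second form, HYOU1 lies on the minus strand at chr11:119057264-119057294, HERPUD1 on the plus strand at chr16:56932015-56932045 and SDF2L1 on the plus strand at chr22:21642104-21642134. HYOU1 holds a further copy of the second form upstream, and its bases -79 to -69 from the start are shown.
HSPA5: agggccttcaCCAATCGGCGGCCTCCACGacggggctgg
CALR: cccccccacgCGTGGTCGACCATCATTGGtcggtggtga
CRELD2: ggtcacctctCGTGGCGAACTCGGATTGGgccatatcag
HYOU1: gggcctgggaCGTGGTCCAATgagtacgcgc
HERPUD1: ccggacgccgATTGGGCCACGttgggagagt
SDF2L1: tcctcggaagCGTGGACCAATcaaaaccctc

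ATF4 binds, with C/EBP partners, an element written here as TGATG, 1 base and AA. It was found in 2 of the 8 ATF4 arm genes listed, CHAC1 and CEBPG, in 1 of 16 XBP1 and ATF6 arm genes, HERPUD1, and in 4.46% of all symbols. The copy of CHAC1, at chr15:40953252-40953279 on the plus strand, reads on the other strand, as does that of HERPUD1 at chr16:56931956-56931983; that of CEBPG, at chr19:33374061-33374088, reads on the gene's strand. The window of CHAC1 overlaps an exon of that gene in GENCODE release 29; those of CEBPG and HERPUD1 overlap none. The X box core ACGTG, to which XBP1 binds, was found in 9 of 16 XBP1 and ATF6 arm genes, 2 of 8 ATF4 arm genes, 1 of 4 sensors and 24.9% of all symbols. It overlaps the ER stress elements wherever CCACG is followed by T.
CHAC1: tcccctgccgTTGCATCActcctgccag
HERPUD1: acgcggcgggTTGCATCAgcccgtgccc
CEBPG: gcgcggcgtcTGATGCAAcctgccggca

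XBP1, the factor that IRE1 activates by splicing, had 167 CPM in untreated cells, 165 CPM at 0.5 nM and 153 CPM at 1.5 nM. Its total transcript was lowest at 1.5 nM, with a log2 ratio of -0.02 [-0.09, 0.05] at 0.5 nM and -0.13 [-0.20, -0.05] at 1.5 nM. DNAJB9 encodes ERdj4, a co-chaperone that depends strongly on spliced XBP1. It had 24.4 CPM untreated, 24.6 CPM at 0.5 nM and 18.7 CPM at 1.5 nM, from 538, 406 and 318 counts. It was level with untreated cells at 0.5 nM, 0.01 [-0.18, 0.20], and lower at 1.5 nM, -0.38 [-0.59, -0.18], with 6.09% of all genes lower. This was the lowest ratio of the 16 genes at 1.5 nM against either other library.

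The most abundant chaperones stayed close to untreated levels. HSPA5 encodes BiP, the ER chaperone that holds the stress sensors inactive, and had 504 TPM in untreated cells, 503 TPM at 0.5 nM and 526 TPM at 1.5 nM. By counts its ratio was -0.04 [-0.07, -0.01] at 0.5 nM and 0.05 [0.02, 0.08] at 1.5 nM, so it was a little lower at one dose and a little higher at the other. HSP90B1, which encodes the chaperone GRP94, had 810, 835 and 835 TPM in the same order, with ratios by counts of -0.03 [-0.0592, -0.00438] and 0.01 [-0.02, 0.03]; on the TPM scale the sign at 0.5 nM was the other one. CALR encodes the lectin chaperone calreticulin and ranked 108th of all genes by TPM in untreated cells. It had 1357 TPM untreated, 1229 TPM at 0.5 nM and 1405 TPM at 1.5 nM, and was lower in the 0.5 nM library alone, with a ratio of -0.23 [-0.26, -0.20] there and -0.01 [-0.03, 0.02] at 1.5 nM.

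Several less abundant folding factors shared that dip at 0.5 nM or stood higher at 1.5 nM. HYOU1, a chaperone that assists BiP, had 252 CPM in untreated cells, 231 CPM at 0.5 nM and 270 CPM at 1.5 nM, with ratios of -0.12 [-0.18, -0.07] and 0.10 [0.05, 0.16]. MANF, a secreted ER stress-induced factor, had 43.0, 39.5 and 49.3 CPM in the same order, and only the higher dose lay beyond counting error, at 0.20 [0.06, 0.33]. SDF2L1, a subunit of an ER chaperone complex, had 14.7 CPM untreated, 14.3 CPM at 0.5 nM and 17.4 CPM at 1.5 nM, with 0.25 [0.02, 0.48] at 1.5 nM. CRELD2, an ER-resident stress-induced protein, had 19.2, 19.3 and 22.5 CPM and 0.23 [0.02, 0.43] at 1.5 nM. All 4 were therefore highest in the 1.5 nM library.

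The remaining folding factors did not follow a common course. DNAJC3, which encodes the co-chaperone P58IPK, was higher at each dose than at the one before, with 150 CPM untreated, 157 CPM at 0.5 nM and 170 CPM at 1.5 nM and ratios of 0.07 [-0.01, 0.14] and 0.18 [0.11, 0.26]. PDIA6, a protein disulfide isomerase, was lower at both doses, with 483, 453 and 441 CPM and ratios of -0.09 [-0.14, -0.05] and -0.13 [-0.17, -0.09]; its counts were not whole. Its relative PDIA4 had 218, 190 and 204 CPM and was also lower at both doses, at -0.20 [-0.27, -0.14] and -0.10 [-0.16, -0.04]. On the TPM scale, where the median of all genes at 0.5 nM was 0.06, the ratios at 0.5 nM were smaller, at -0.14 for CALR, -0.05 for HYOU1, -0.13 for PDIA4 and -0.02 for PDIA6.

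Of the 4 factors of ER-associated degradation among the members, HERPUD1 differed most from untreated cells. HERPUD1 organises the ubiquitin ligase complex at the ER membrane, and had 137 CPM in untreated cells, 114.5 CPM at 0.5 nM and 120.3 CPM at 1.5 nM. It was lower at both doses, with ratios of -0.26 [-0.34, -0.17] and -0.19 [-0.27, -0.10], and smaller differences on the TPM scale, -0.14 and -0.08. SYVN1, which encodes the ligase HRD1, had 28.6, 26.9 and 29.2 CPM, and its partner SEL1L had 217, 230 and 225 CPM. EDEM1, which directs misfolded glycoproteins to degradation, had 199, 204 and 192 CPM. Of these 3, SEL1L at 0.5 nM was the single case beyond counting error against untreated cells, at 0.08 [0.02, 0.15].

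VEGFA, a secreted growth factor induced by ATF4, XBP1 and hypoxia, differed between the deposited measures. By counts it had 16.1 CPM in untreated cells, 15.1 CPM at 0.5 nM and 12.9 CPM at 1.5 nM, a ratio of -0.32 [-0.57, -0.07] at 1.5 nM. In TPM it had 11.3, 11.4 and 11.2 in the same order, level in all 3 libraries. TPM also depends on the transcript length that the authors' tools assigned, and which of the measures is nearer to the molecules was not tested.

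The libraries of the 2 doses were also set against each other directly. For 1.5 nM against 0.5 nM the median log2 ratio was 0.10 over the 16 XBP1 and ATF6 arm genes, with 11 above 0. It was 0.06 over the 8 ATF4 arm genes, with 5 above 0, against 0.00 over all genes, with 50.1% above 0. Within the XBP1 and ATF6 arm, the 11 chaperones and folding factors had a median of 0.12 with 9 above 0. The 4 degradation factors had 0.02 with 2 above 0. MANF had the highest ratio, 0.32 [0.17, 0.47], followed by SDF2L1 with 0.28 [0.03, 0.54], HYOU1 with 0.23 [0.17, 0.29] and CALR with 0.22 [0.20, 0.25]. DNAJB9 had the lowest, -0.39 [-0.61, -0.18].

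By CPM, the 0.5 nM library was the lowest of the 3 for many of these genes. Of the 11 chaperones and folding factors, 7 were lower at 0.5 nM than in both other libraries (63.6%). The same held for 3 of the 8 ATF4 arm genes (37.5%) and 28.0% of all genes. Among those genes HSP90B1, SDF2L1 and TRIB3 were instead lowest in untreated cells by TPM. In the order untreated, 0.5 nM and 1.5 nM, HSP90B1 had 810, 835 and 835 TPM. SDF2L1 had 34.6, 35.4 and 42.2 TPM, and TRIB3 10.6, 11.0 and 11.6 TPM. The 9 arm genes with either ER stress element had a median of 0.09 for 1.5 nM against 0.5 nM, with 7 above 0, and the 7 with neither had 0.10, with 4 above 0. At 0.5 nM against untreated cells, 1 of the 9 with an element was above 0, with a median of -0.04, and 4 of the 7 with neither, with a median of 0.01. Over all genes, 50.1% were above 0 for 1.5 nM against 0.5 nM and 50.6% at 0.5 nM against untreated cells. The median over all genes was 0.00 in each of these comparisons. Whether the element bears on these values was not tested. Outside the members, 35 genes of the promoter table held either element, and 19 of them were analysed. Their median was 0.03 for 1.5 nM against 0.5 nM, with 11 above 0. At 0.5 nM against untreated cells it was -0.07, with 4 above 0.

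Transcript GC content moved with the ratio between the treated libraries over all genes. Its median was 0.15 in the 10% of genes richest in GC and -0.11 in the 10% poorest in GC. For 0.5 nM against untreated cells the trend ran the other way, with -0.10 in the richest 10% and 0.09 in the poorest 10%. For 1.5 nM against untreated cells these medians were 0.05 and -0.03. Analysed ATF4 arm genes had a median GC content of 58.5% and XBP1 and ATF6 arm genes of 47.0%, against 48.0% over all genes. With the GC trend removed, the median of the ATF4 arm for 1.5 nM against 0.5 nM became -0.03, that of the XBP1 and ATF6 arm was 0.09, and that of the chaperones and folding factors was 0.12 with 9 of 11 above 0. For single genes it was 0.29 for MANF, 0.16 for HYOU1, 0.17 for CALR, 0.12 for SDF2L1 and -0.32 for DNAJB9. At 0.5 nM against untreated cells, the corrected medians were -0.0037 for the ATF4 arm and -0.05 for the XBP1 and ATF6 arm. That of the chaperones and folding factors was -0.07, with 3 of 11 above 0. There SDF2L1 turned above 0 (0.07) and DNAJB9 below 0 (-0.03). ATF4 (-0.20), CALR (-0.195), HYOU1 (-0.08) and PDIA4 (-0.17) stayed below 0.

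**Figure D4:**
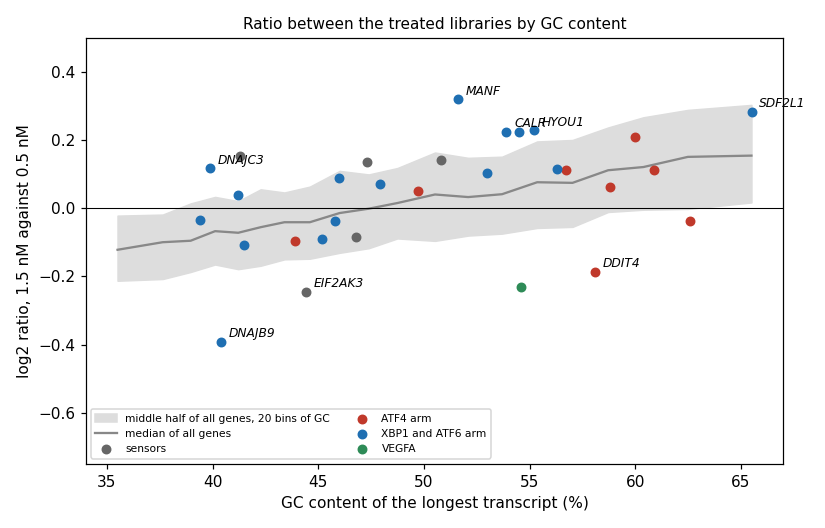
Log2 ratio of 1.5 nM against 0.5 nM (y axis) by GC content of the longest transcript (x axis) for the members, coloured by role; the grey line is the median and the band the 25th to 75th percentile of all genes, in 20 bins of GC content. Most ATF4 arm genes lie at high GC content, where the grey line is above 0, while CEBPG, at 43.9% GC, lies where it is below 0; MANF is above and DNAJB9 below the band.

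Other genes of the pathways were counted from lists of known function, made with earlier results of these data known. Of 28 listed amino acid and stress targets of ATF4, 26 were analysed. Of these, 21 lay below 0 at each dose, beside 5594 (0.5 nM) and 5687 (1.5 nM) of all 11322 genes. The medians of the 26 were -0.15 at 0.5 nM and -0.12 at 1.5 nM. The counting interval lay below 0 for 16 of the 26 at 0.5 nM and 15 at 1.5 nM, against the 17.3% and 23.6% of all genes given above, and above 0 for 2 at each dose. Over the 8 alternative settings the median stayed below 0, between -0.15 and -0.08 at 0.5 nM and between -0.19 and -0.09 at 1.5 nM. At 0.5 nM 1 was at least 1.5-fold lower (background 0.901%) and 0 at least 1.5-fold higher (background 2.46%). At 1.5 nM 4 were at least 1.5-fold lower (background 2.23%) and 2 at least 1.5-fold higher (background 4.76%). PHGDH, which starts serine synthesis, had 73.9 CPM in untreated cells, 50.1 CPM at 0.5 nM and 42.9 CPM at 1.5 nM. ASNS, the asparagine synthetase gene, had 71.1, 53.9 and 51.1 CPM, a ratio of -0.47 [-0.60, -0.35] at 1.5 nM. Both were lower in each treated library, as were ATF4 and CHAC1.

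The 2 higher targets were SLC7A11 and ATF3. SLC7A11, the cystine transporter gene that NRF2 also controls, had 27.8 CPM untreated, 34.2 CPM at 0.5 nM and 53.5 CPM at 1.5 nM. ATF3, a stress factor with several upstream pathways, had 3.13, 3.81 and 5.59 CPM, from 69, 63 and 95 counts. HMOX1, the haem oxygenase gene and an NRF2 target, stood at 4.72, 12.0 and 37.8 CPM in the same libraries, and CDKN1A, a p53 target, at 11.7, 31.8 and 19.7 CPM. Their part in the values of the members was not tested.

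Apart from these targets, no list held more than 1 gene past 1.5-fold at either dose. The 16 genes of the eIF2 complex and its regulators had medians of -0.05 at 0.5 nM and -0.01 at 1.5 nM. Among them OMA1, a mitochondrial protease that relays stress to HRI, had 16.4 CPM untreated, 22.1 CPM at 0.5 nM and 20.1 CPM at 1.5 nM, with ratios of 0.43 [0.21, 0.64] and 0.29 [0.07, 0.51]. The 18 further ER folding factors had -0.07 at both doses. ERO1B, an oxidase for disulfide formation, stood furthest above 0 at 1.5 nM with 0.40 [0.03, 0.80]. PDIA5 stood furthest below 0 at that dose, with -0.35 [-0.54, -0.16]. Translocation and N-glycosylation genes of the ER had -0.08 and -0.06, with 19 and 18 of 23 below 0, beside 5594 and 5687 of all 11322 genes. The 19 further degradation factors had 0.01 at both doses. DERL3, which encodes a degradation channel subunit, was lowest at 1.5 nM with -0.87 [-1.44, -0.39]. That ratio came from 45 counts at 1.5 nM and 109 counts untreated, counts that were not whole. EDEM2 was highest of these factors at 1.5 nM, with 0.38 [0.20, 0.56]. ATF6 processing genes and relatives had 0.06 and 0.10 over 6 genes, with ATF6B, the paralogue of ATF6, at 0.24 [0.16, 0.33] at 1.5 nM. The 14 cytosolic heat shock genes had -0.07 and -0.05. BAG3, a co-chaperone gene, was the member of that list furthest above 0 at 1.5 nM, with 0.40 [0.21, 0.59]. In the same list DNAJB1 had -0.25 [-0.33, -0.16] and HSPE1, with counts that were not whole, had -0.24 [-0.31, -0.17].

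Transcripts that IRE1 is known to cut were few here, with 3 of 6 analysed. BLOC1S1, the best known of them, had 24.4 CPM untreated, 21.7 CPM at 0.5 nM and 28.3 CPM at 1.5 nM, with 0.21 [0.03, 0.39] at 1.5 nM; its counts were not whole. HGSNAT had 0.13 [0.03, 0.23] at that dose. COL6A1 had 0.80 [0.15, 1.56] from 43 counts at 1.5 nM and 31 counts untreated. None of the 3 was below untreated cells at 1.5 nM, beside 5687 of all 11322 genes. At 0.5 nM 1 of the 3 was below, BLOC1S1 at -0.17 [-0.37, 0.02], beside 5594 of all genes. Whether IRE1 cut these transcripts was not tested.

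All 8 myelomonocytic markers were detected in each library, with summed levels of 3305 TPM untreated, 3226 TPM at 0.5 nM and 4028 TPM at 1.5 nM. LYZ made up most of that sum, with 2676, 2583 and 3405 TPM. At 1.5 nM against untreated cells, 4 of the 8 lay above 0, beside 49.8% of all genes. CSF1R and SPI1 had ratios of 0.35 [0.18, 0.52] and 0.19 [0.10, 0.28] there. HOXA9 and MEIS1 had -0.37 [-0.50, -0.24] and -0.22 [-0.32, -0.12]. FLT3, the receptor for the ligand part, had 506, 489 and 448 CPM. MS4A1, a marker of mature B cells, was at 0 in all 3 libraries. The lists of stromal, erythroid and plasma cell markers each summed to at most 0.314 TPM. Markers of epithelial or other adherent cells, 8 genes, summed to 8.80 TPM untreated, 8.16 TPM at 0.5 nM and 5.60 TPM at 1.5 nM. EPCAM was at 0 in all 3 libraries, while IRS4 had 224, 204 and 0 counts, DSP 32, 27 and 0, and DSG2 21, 18 and 0. KRT8 went the other way, with 33, 32 and 44 counts and a ratio of 0.75 [0.11, 1.49] at 1.5 nM, and KRT18 had 56, 24 and 31 counts. The part of that difference in the members' values was not tested.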

How the data were processed

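MV-4-11 mRNA was captured with oligo(dT) and sequenced on an Illumina HiSeq2500, per the labels' protocols. The deposited table gives the authors' estimated counts, not normalised, and their TPM values. The submitters' processing notes name StringTie 1.3.1 and HISAT2, fastp 0.18.0, and edgeR and DESeq2. Which tool did what, and on which build, is not given in the sources used here. Column numbers 0, 1 and 2 were read as untreated, 0.5 nM and 1.5 nM, since the table prints no dose; were the treated columns exchanged, so would be every statement on them.

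Estimated counts were rounded and genes with a mean of 1 CPM or more kept. TMM factors (edgeR 4.0.16, R 4.3.3) were 0.987 untreated, 1.005 at 0.5 nM and 1.008 at 1.5 nM. Ratios are differences of log2 CPM with a prior count of 2. For NUPR1, below the filter, the ratio was taken from the scaled counts without a prior count. Intervals are Clopper-Pearson at 95%, from the rounded counts (Python 3.11.15, scipy 1.17.1); duplicate reads from PCR were not known, so the true counting error may be wider. With 1 library per group, no test was run; 3 counts equal 0.136 to 0.182 CPM. Transcript GC content came from GENCODE release 29, for 99.4% of the genes analysed. Alternatives used DESeq2 1.42.0 size factors, total counts, other filters and prior counts, log2(TPM + 0.1), a lowess GC correction and whole-count genes alone. The calculation was checked on simulated data. Text names every member and, per pathway list, up to 3 genes by size at 1.5 nM, plus ATF3, ASNS, FLT3, CDKN1A and HMOX1. EPCAM, KRT8, KRT18, LYZ, CSF1R, SPI1, HOXA9, MEIS1 and MS4A1 were named after their values were seen. Members and lists were chosen with earlier results of these data known.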

Additional observations from a re-analysis of the deposited data

How the results depend on the processing

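With the DESeq2 size factors, a prior count of 0.5, total counts, TPM or the GC trend removed, the counts of members past 1.5-fold or 2-fold were the same, and the median of the ER chaperones and folding factors for 1.5 nM against 0.5 nM was between 0.08 and 0.12. Without a filter NUPR1 enters, and 1 member was then at least 1.5-fold and 2-fold higher at 1.5 nM against untreated and against 0.5 nM. With a minimum of 5 CPM CHAC1 drops out, and 0 members were 1.5-fold lower at either dose. With whole-count genes alone, 2 sensors remained and their median for 1.5 nM against 0.5 nM was -0.0564, in place of 0.14. Of the single ratios, 19 of 90 under TPM, 9 under the GC correction and 3 under total counts left their counting interval; no ratio past 1.5-fold turned. The cause was not tested. At these depths the genes under 10 CPM, among them CHAC1, DDIT3 and DDIT4, allow no ratio finer than their intervals.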
